A study of Homo sapiens with 12 samples.

Results

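The circadian clock genes described here are 10 genes chosen by symbol for their known roles in the molecular clock, out of 58735 entries in the count tables: the activators ARNTL (also called BMAL1) and CLOCK, the repressors PER1, PER2, PER3, CRY1 and CRY2, the nuclear receptors NR1D1 and NR1D2, and the output factor DBP. Each symbol occurred once in the tables. Messenger RNA came from MDA-MB-468, a human triple-negative breast cancer line of basal type labelled as wild type, in 4 groups of 3 libraries. In the combination, cells were treated for 24 h with 5 µM tazemetostat, an inhibitor of the histone methyltransferase EZH2, and 5 µM ipatasertib, an inhibitor of the kinase AKT, in medium with 2% serum on 6 cm plates, after 5 days of culture in tazemetostat or DMSO. In the docetaxel groups, cells on 10 cm plates received 10 nM of this microtubule-stabilising taxane for 24 h or for 8 h, in medium whose serum is not given. The vehicle group is labelled DMSO. Its hours since dosing, medium and plate size are not given in the labels, and the letters A, B and C of the libraries are not said to mark separate cultures, so the tests rest on variation among libraries that may only be technical.

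The clock is a feedback loop of transcription. The proteins CLOCK and ARNTL pair up and bind E-boxes in the promoters of the PER and CRY genes, whose proteins return to the nucleus and inhibit the pair. In a further loop the receptors encoded by NR1D1 and NR1D2 (REV-ERB alpha and beta) repress ARNTL through ROR elements, which the ROR receptors use to activate it. Most cells in culture keep such loops, each cell at its own phase unless a stimulus such as fresh serum aligns them. In a bulk sample, fewer cells expressing a gene and less RNA of it per cell cannot be told apart, and a level at 1 hour says nothing of the rhythm.

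Matches to clock elements in the promoters are shown as sequence context. A link between a match and a change in level was not tested. The windows of CRY2, CLOCK, NR1D2 and DBP held none of the elements searched, and the match of CRY1 is counted below but not printed. The sequences are those of RefSeq on GRCh38.p14, 5′ to 3′ on the gene's own strand, and all 10 genes had an entry, ARNTL under the symbol BMAL1. Each window was 300 bases, from 250 before to 50 after the gene's start in RefSeq. For PER1, PER2, CRY1, ARNTL, CLOCK, NR1D1, NR1D2 and DBP this start lies inside the GENCODE 29 gene whose ends are given below. Capitals mark the match on either strand, with up to 20 bases beside it.
PER1 E-box, chr17:8152552-8152597, minus strand: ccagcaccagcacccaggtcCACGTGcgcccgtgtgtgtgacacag
PER2 E'-box, chr2:238288782-238288827, minus strand: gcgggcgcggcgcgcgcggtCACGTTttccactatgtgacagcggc
PER2 D-box, chr2:238288586-238288633, minus strand: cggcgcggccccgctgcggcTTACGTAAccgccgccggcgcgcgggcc
PER3 D-box, chr1:7784094-7784141, plus strand: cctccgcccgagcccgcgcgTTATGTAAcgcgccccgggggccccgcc
NR1D1 E'-box, chr17:40100732-40100777, minus strand: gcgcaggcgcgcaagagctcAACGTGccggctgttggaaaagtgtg
ARNTL ROR element core, chr11:13277800-13277839, plus strand: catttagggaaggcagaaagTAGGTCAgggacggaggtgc

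The E-box CACGTG was found in 1 of the 10 windows, that of PER1, and in 7.26% of 35116 promoters of the same length. Its variant CACGTT, the E'-box, was found in 3 (PER2, CRY1 and NR1D1) and in 5.34% of all promoters. The D-box, which DBP and its relatives bind, was searched as TTATGTAA and TTACGTAA and was found in PER2 and PER3, and in 1.01% of all. The ROR element core TAGGTCA was found in ARNTL, 31 bases after its start, and in 1.85% of all. The cAMP element TGACGTCA was in none of the 10 windows (1.85% of all), and GTAAACA, a site of FOXO factors, was in that of CRY1 (3.42% of all). A match is a run of letters, not a measured binding site.

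Total counts were 29820617 to 45807059 per library, and 17780 genes passed the filter on low counts, all 10 clock genes among them. Single clock genes had 181 to 2626 counts in a library. Basal and epithelial markers were high in every library (EGFR at least 2522 CPM, KRT5 at least 882 CPM). Of the hormone receptor genes, PGR was at 0 or 1 count and ESR1 had 23 to 82 counts. The receptor kinase gene ERBB2 had 69.9 to 102 CPM. The 4 immune markers had at most 7 counts each. The 5 fibroblast markers summed to 22.1 to 23.4 CPM in the combination, 16.5 to 19.5 CPM at 24 h of docetaxel, 12.3 to 13.5 CPM at 8 h and 21.1 to 22.3 CPM in DMSO, most of it COL1A1. Within them LUM had 115 to 149 counts and DCN 8 to 12 counts in the combination libraries, while both were at 0 in the 9 other libraries. The 3 endothelial markers summed to 2.72 to 2.98 CPM in the combination, 1.23 to 1.27 CPM at 24 h, 0.57 to 0.896 CPM at 8 h and 0.65 to 1.17 CPM in DMSO. The part of these markers in the results on the combination was not tested. Genes of the mitochondrial genome took 7.71% to 9.30% of the counts in the combination, 5.00% to 7.53% at 24 h of docetaxel, 8.20% to 9.0% at 8 h and 4.0% to 4.48% in DMSO. The part of this difference in the results was not tested. The scaling was varied for all genes together, which does not single out the mitochondrial genes. Scaled by library totals alone, the median log2 fold change of all genes at 8 h of docetaxel against DMSO moved to -0.18, against -0.02 with TMM. For the combination against DMSO it moved to -0.03, against 0.01. For 24 h against 8 h it moved to 0.14, against 0.01.

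Levels are given as normalised CPM, counts scaled to the library's total and its TMM factor, for libraries A, B and C in turn. Differences are log2 fold changes with an approximate SE, and a gene is said to have risen or fallen where its adjusted p in edgeR's quasi-likelihood test, over all 17780 genes, was under 0.05. Against DMSO, 8 of the 10 clock genes changed in the combination, 4 higher and 4 lower, where 62.8% of all genes tested were called. At 24 h of docetaxel 5 changed, 4 higher and 1 lower, where 42.9% of all genes were called. At 8 h of docetaxel 6 changed, 4 higher and 2 lower, where 47.3% were called. With library totals the 8 h split was 1 higher and 3 lower for the clock genes, and 2288 higher and 6784 lower over all genes, against 3994 and 4415 with TMM. With 10 genes these counts are not told apart from the background. The 10 genes had a median log2 fold change of 0.08 in the combination, 0.06 for 24 h and 0.12 for 8 h, against 0.01, 0.01 and -0.02 over all genes tested. The hours, medium and plate of DMSO are not given. In every comparison with DMSO, the drugs therefore cannot be told apart from any difference in these.

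**Figure D1:**
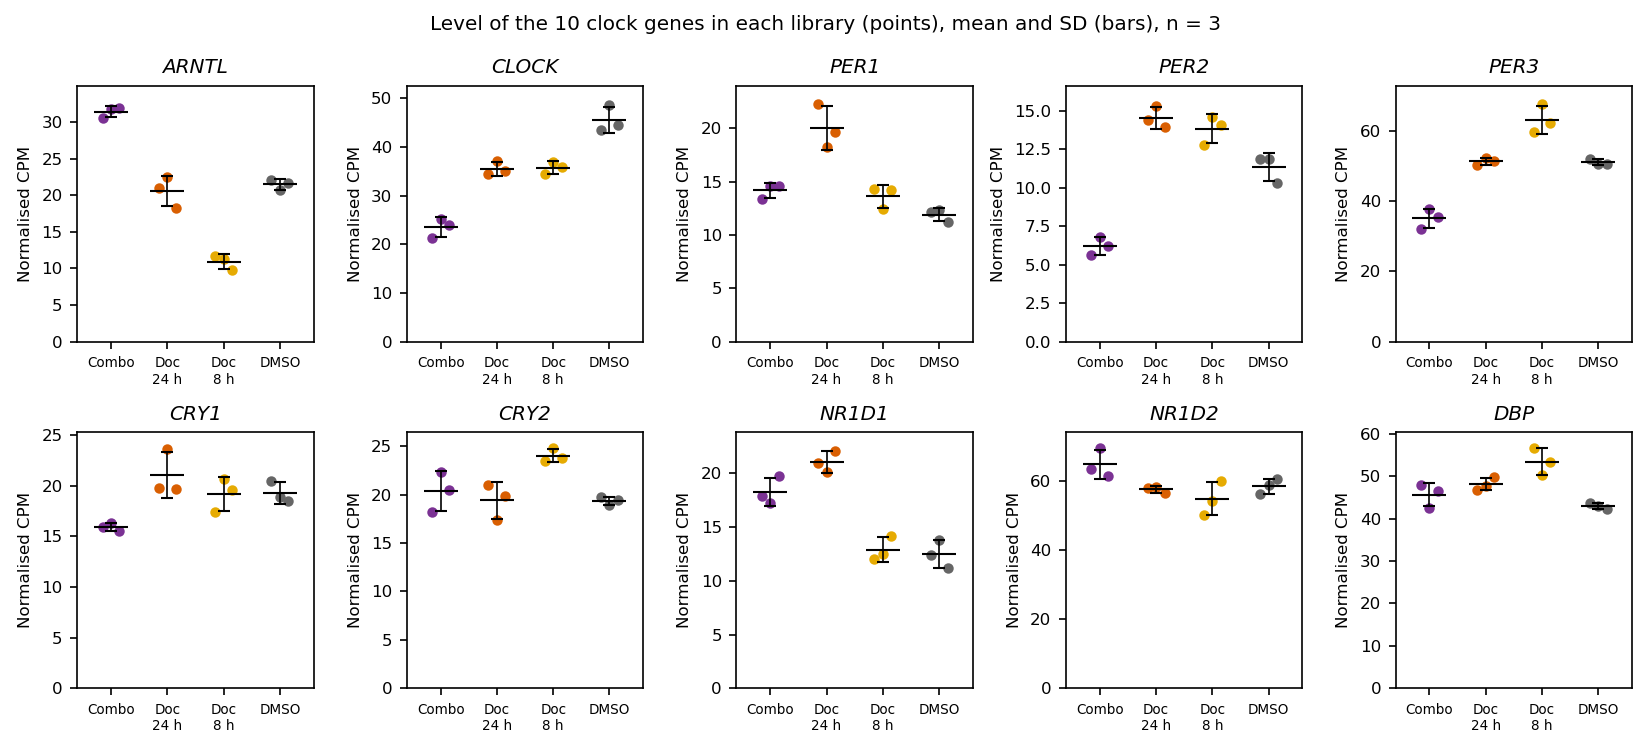
Level of each clock gene in normalised CPM (vertical axis, from 0) in the 4 groups, left to right the combination (Combo), docetaxel (Doc) 24 h, docetaxel 8 h and DMSO. Points are single libraries, and bars are the mean and SD of 3 libraries. ARNTL averaged 31.4 CPM in the combination, 20.6 CPM after 24 h of docetaxel, 10.9 CPM after 8 h and 21.5 CPM in DMSO, while CLOCK was lowest in the combination at 23.6 CPM and highest in DMSO at 45.6 CPM.

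ARNTL (chromosome 11, 13276652 to 13387266 on GRCh38, plus strand) encodes the partner of CLOCK and is the clock factor whose loss alone stops the rhythm in mice. It had 30.5, 31.7 and 31.8 CPM in the combination, 21.0, 22.4 and 18.3 CPM at 24 h of docetaxel, 11.7, 11.2 and 9.77 CPM at 8 h and 22.1, 20.7 and 21.7 CPM in DMSO. The combination libraries all lay above the rest and the 8 h libraries all below, whereas those of 24 h and DMSO overlapped. ARNTL therefore rose in the combination by 0.54 ± 0.07 (edgeR adjusted p = 1.16e-06) and fell by 0.97 ± 0.08 at 8 h of docetaxel (edgeR adjusted p = 2.36e-09), to 0.509 times its DMSO level. At 24 h it stood at -0.07 ± 0.08 and did not pass (edgeR adjusted p = 0.488). Its range over the 4 group means, 1.52 on the log2 CPM scale, was the widest of the 10 genes.

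CLOCK (chromosome 4, 55427903 to 55547138, minus strand), which encodes the partner of ARNTL, had 21.4, 25.3 and 24.0 CPM in the combination, 34.5, 37.1 and 35.0 CPM at 24 h of docetaxel, 34.4, 37.0 and 35.9 CPM at 8 h and 43.6, 48.7 and 44.5 CPM in DMSO. Each treatment lay below DMSO without overlap, and the docetaxel time points overlapped each other. It fell in all 3 treatments, by 0.95 ± 0.07 in the combination (edgeR adjusted p = 1.77e-11), by 0.36 ± 0.06 at 24 h (edgeR adjusted p = 7.95e-05) and by 0.35 ± 0.06 at 8 h (edgeR adjusted p = 8.59e-05). Among the 10 genes CLOCK alone was called in the same direction in all 3 comparisons with DMSO, which share their control libraries. It shares 76 exonic bases with TMEM165 on the other strand, 0.646% of its exons, and 27 with AC024243.1, whose median count was 2.

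NPAS2, a relative of CLOCK that can take its place beside ARNTL, was counted among the other clock factors. It had 48.6, 52.0 and 51.6 CPM in the combination, 16.1, 15.1 and 14.0 CPM at 24 h of docetaxel, 12.9, 13.5 and 13.4 CPM at 8 h and 12.9, 14.1 and 12.6 CPM in DMSO. It rose in the combination by 1.94 ± 0.07 (edgeR adjusted p = 9.61e-17), with all 3 libraries above the rest, and by 0.19 ± 0.07 at 24 h of docetaxel (edgeR adjusted p = 0.0336), where the libraries overlapped those of DMSO. The ratio of NPAS2 to CLOCK counts within a library, which no scaling changes, averaged 2.16 ± 0.107 in the combination, 0.425 ± 0.0372 at 24 h, 0.371 ± 0.00561 at 8 h and 0.29 ± 0.00624 in DMSO (SD, n = 3 each). This ratio was chosen after its values were seen and is a description.

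**Figure D2:**
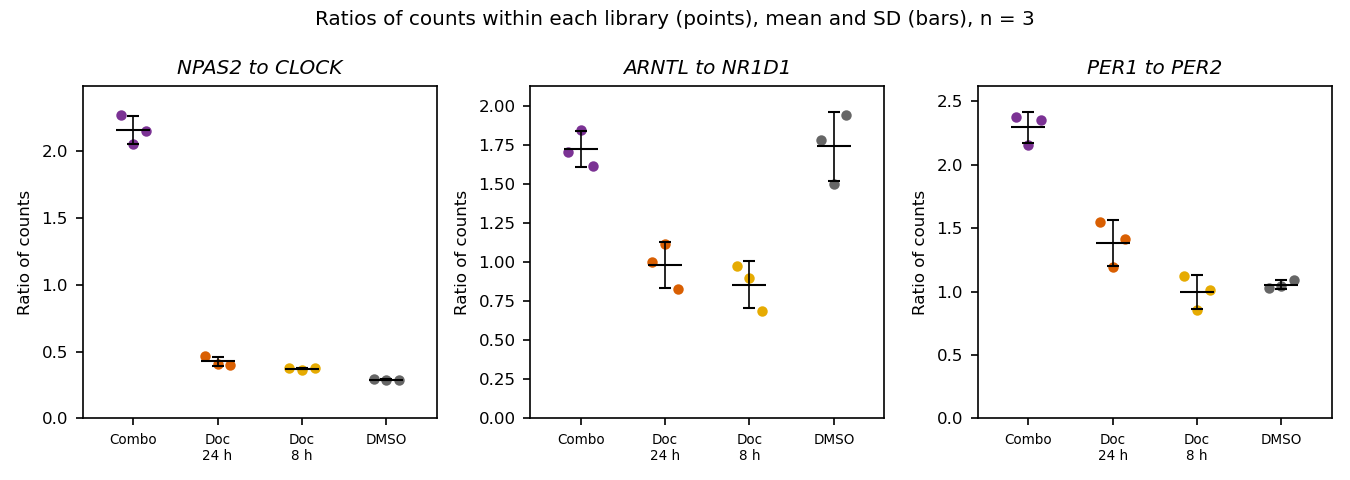
Ratios of raw counts within each library (vertical axes, no unit, from 0) for NPAS2 to CLOCK, ARNTL to NR1D1 and PER1 to PER2 in the 4 groups. Points are libraries, and bars are the mean and SD of 3 libraries. The NPAS2 to CLOCK ratio lay at 2.06 or above in the combination and at 0.468 or below in the other libraries.

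The 3 period genes encode scaffold proteins that carry the cryptochromes into the nucleus, and they did not move as a group. PER1 (chromosome 17, 8140472 to 8156506, minus strand), the member most quickly induced by cAMP and glucocorticoids, had 13.3, 14.6 and 14.6 CPM in the combination, 22.3, 18.2 and 19.6 CPM at 24 h of docetaxel, 14.3, 12.4 and 14.2 CPM at 8 h and 12.2, 12.4 and 11.3 CPM in DMSO. The 24 h libraries were above all others. PER1 rose at 24 h by 0.75 ± 0.08 (edgeR adjusted p = 3.06e-07) and in the combination by 0.25 ± 0.09 (edgeR adjusted p = 0.0154). At 8 h it stood at 0.19 ± 0.09 and did not pass (edgeR adjusted p = 0.0716), though it passed without 8 h library B, at 0.26 (edgeR adjusted p = 0.0262). The call in the combination ended without DMSO library C (0.21, edgeR adjusted p = 0.0673), without combination library B (0.23, edgeR adjusted p = 0.0518) or C (0.23, edgeR adjusted p = 0.0540), and with no filter on low counts (0.21, edgeR adjusted p = 0.0515).

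PER2 (chromosome 2, 238244038 to 238290102, minus strand) had 5.60, 6.77 and 6.21 CPM in the combination, 14.4, 15.3 and 13.9 CPM at 24 h of docetaxel, 12.8, 14.6 and 14.1 CPM at 8 h and 11.9, 11.9 and 10.3 CPM in DMSO. The combination was lowest and both docetaxel groups, which overlapped each other, lay above DMSO. PER2 fell by 0.87 ± 0.10 in the combination (edgeR adjusted p = 4.05e-08), to 0.546 times its DMSO level, and rose by 0.35 ± 0.09 at 24 h of docetaxel (edgeR adjusted p = 0.00196) and by 0.28 ± 0.09 at 8 h (edgeR adjusted p = 0.0106). The 8 h call ended with library totals (0.13, edgeR adjusted p = 0.269), without DMSO library C (0.24, edgeR adjusted p = 0.0531) and without 8 h library B (0.24, edgeR adjusted p = 0.0511).

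PER3 (chromosome 1, 7784320 to 7845177, plus strand) had 32.2, 37.7 and 35.4 CPM in the combination, 50.3, 52.1 and 51.5 CPM at 24 h of docetaxel, 59.6, 67.5 and 62.2 CPM at 8 h and 52.1, 50.5 and 50.6 CPM in DMSO. The combination libraries lay below and the 8 h libraries above all others. PER3 fell by 0.54 ± 0.06 in the combination (edgeR adjusted p = 5.28e-08) and rose by 0.31 ± 0.06 at 8 h of docetaxel (edgeR adjusted p = 0.000154), a call that ended with library totals (0.15, edgeR adjusted p = 0.0611). At 24 h it stood at 0.01 ± 0.06 (edgeR adjusted p = 0.943). In the combination the ratio of PER1 to PER2 counts was thus 2.38, 2.16 and 2.35, against 1.03, 1.04 and 1.09 in DMSO, a ratio chosen after its values were seen. PER3 shares 868 exonic bases with UTS2 and 482 with Z98884.1 on the other strand, which had at most 4 and 45 counts in a library.

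CRY1 and CRY2 encode the cryptochromes, the proteins that hold the CLOCK and ARNTL pair inactive. CRY1 (chromosome 12, 106991364 to 107093829, minus strand) had 15.9, 16.3 and 15.6 CPM in the combination, 19.8, 23.6 and 19.7 CPM at 24 h of docetaxel, 17.4, 20.6 and 19.6 CPM at 8 h and 20.5, 18.9 and 18.5 CPM in DMSO. The combination libraries lay below all others, which overlapped. CRY1 fell by 0.28 ± 0.08 there (edgeR adjusted p = 0.00534) and stood at 0.12 ± 0.08 at 24 h and -0.01 ± 0.08 at 8 h, neither of which passed (edgeR adjusted p = 0.240 and 0.931).

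CRY2 (chromosome 11, 45847118 to 45883248, plus strand) had 18.2, 22.3 and 20.4 CPM in the combination, 21.0, 17.3 and 19.8 CPM at 24 h of docetaxel, 23.4, 24.8 and 23.8 CPM at 8 h and 19.7, 18.9 and 19.4 CPM in DMSO. Only the 8 h libraries stood apart, above the others. CRY2 rose at 8 h by 0.31 ± 0.08 (edgeR adjusted p = 0.00197), a call that ended with library totals (0.16, edgeR adjusted p = 0.123). It stood at 0.07 ± 0.08 in the combination and 0.00 ± 0.08 at 24 h, neither of which passed (edgeR adjusted p = 0.450 and 0.982).

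NR1D1 (chromosome 17, 40092787 to 40100725, minus strand), whose receptor represses ARNTL, had 17.9, 17.2 and 19.7 CPM in the combination, 21.0, 20.1 and 22.1 CPM at 24 h of docetaxel, 11.998, 12.5 and 14.2 CPM at 8 h and 12.4, 13.8 and 11.2 CPM in DMSO. The 24 h libraries were highest, the combination came next without overlap, and those of 8 h and DMSO overlapped. NR1D1 rose by 0.55 ± 0.09 in the combination (edgeR adjusted p = 5.70e-06) and by 0.76 ± 0.08 at 24 h (edgeR adjusted p = 2.57e-07), and stood at 0.05 ± 0.09 at 8 h (edgeR adjusted p = 0.685). ARNTL and NR1D1 thus both rose in the combination. The ratio of ARNTL to NR1D1 counts was 1.70, 1.85 and 1.62 in the combination, 1.0, 1.12 and 0.828 at 24 h, 0.978, 0.899 and 0.69 at 8 h and 1.78, 1.502 and 1.94 in DMSO. The combination and DMSO overlapped in this ratio, and both docetaxel groups lay below them. This ratio was not planned in advance and is a description.

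NR1D1 shares 263 exonic bases, 9.49% of its exons, with THRA, the thyroid hormone receptor alpha gene on the opposite strand, and the strand setting of the counting is not known. THRA rose in the combination by 0.61 ± 0.08 and fell by 0.57 ± 0.08 at 24 h of docetaxel (edgeR adjusted p = 4.74e-07 and 8.59e-06). At 8 h THRA fell by 0.59 ± 0.08 (edgeR adjusted p = 4.37e-06), where NR1D1 did not pass. It thus moved with NR1D1 in the combination and against it at 24 h. The part of shared reads in the value of NR1D1 was not tested.

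NR1D2 (chromosome 3, 23945260 to 23980618, plus strand), which encodes the sister receptor, had 63.6, 69.7 and 61.5 CPM in the combination, 58.1, 58.5 and 56.5 CPM at 24 h of docetaxel, 50.4, 54.5 and 60.0 CPM at 8 h and 56.2, 58.8 and 60.7 CPM in DMSO. It rose by 0.15 ± 0.06 in the combination (edgeR adjusted p = 0.0383), whose lowest library lay just above the highest of DMSO, and did not pass at 24 h (-0.02 ± 0.06, edgeR adjusted p = 0.810) or 8 h (-0.09 ± 0.06, edgeR adjusted p = 0.230). The combination call ended without DMSO library A (0.12, edgeR adjusted p = 0.143) or B (0.15, edgeR adjusted p = 0.0678), without combination library B (0.09, edgeR adjusted p = 0.222), with library totals (0.11, edgeR adjusted p = 0.133) and with no filter on low counts (0.11, edgeR adjusted p = 0.165). With library totals NR1D2 was called lower at 8 h, at -0.25 (edgeR adjusted p = 0.00287). Its group means spanned 0.24 on the log2 CPM scale, the narrowest range of the 10.

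DBP (chromosome 19, 48630030 to 48637438, minus strand), the output factor that the CLOCK and ARNTL pair drives and that binds D-boxes, had 47.8, 42.5 and 46.5 CPM in the combination, 46.8, 47.8 and 49.7 CPM at 24 h of docetaxel, 56.7, 50.2 and 53.4 CPM at 8 h and 43.7, 43.1 and 42.3 CPM in DMSO. The libraries of 8 h lay above all others and those of the combination overlapped DMSO. DBP rose by 0.31 ± 0.06 at 8 h (edgeR adjusted p = 9.95e-05), where it kept its call with library totals at 0.16 (edgeR adjusted p = 0.0209), and by 0.16 ± 0.06 at 24 h (edgeR adjusted p = 0.0263). It stood at 0.08 ± 0.06 in the combination (edgeR adjusted p = 0.212). The 24 h call ended without DMSO library B (edgeR adjusted p = 0.0526) or C (edgeR adjusted p = 0.0710), without 24 h library B (edgeR adjusted p = 0.0524) or C (edgeR adjusted p = 0.120) and with no filter on low counts (edgeR adjusted p = 0.0890), at 0.14 to 0.17. DBP shares 661 exonic bases, 10.1% of its exons, with SPHK2 on the opposite strand. SPHK2 rose at 8 h by 0.27 ± 0.07 (edgeR adjusted p = 0.00269), as DBP did, and stood at -0.16 ± 0.07 at 24 h (edgeR adjusted p = 0.0717), where DBP was called higher. In the combination it stood at 0.06 ± 0.07 (edgeR adjusted p = 0.519). The part of shared reads in the value of DBP was not tested.

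**Figure D3:**
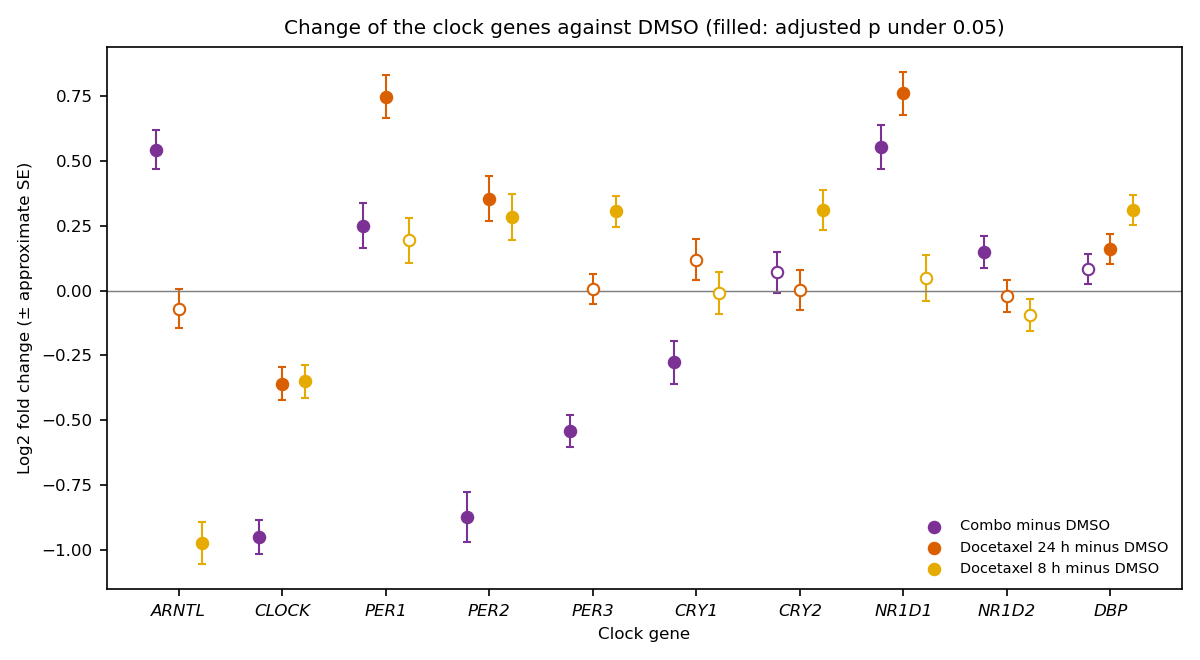
Log2 fold change against DMSO (vertical axis) of each clock gene in the combination, at 24 h of docetaxel and at 8 h of docetaxel. Bars are the approximate SE, filled points have an adjusted p under 0.05 and open points do not. CLOCK is below 0 in all 3 comparisons, ARNTL stands at 0.54 in the combination and at -0.97 at 8 h, and PER2 at -0.87 in the combination and at 0.35 and 0.28 in docetaxel.

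Set per kilobase of the longest coding transcript, the level in DMSO was highest for DBP at 19.3 CPM per kb, followed by NR1D2 at 11.1, PER3 at 8.08 and ARNTL at 7.71. It was lowest for PER1 at 2.53 and PER2 at 1.78. Per kilobase of all annotated exons, NR1D2 came first at 10.1 CPM per kb and DBP second at 6.58, while PER1 and PER2 remained lowest at 1.70 and 1.65.

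Between the docetaxel time points, 6 of the 10 genes differed, 3 higher and 3 lower at 24 h than at 8 h, where 34.9% of all genes tested were called. The shares over all genes were 16.6% higher and 18.3% lower. A difference of the 10 genes from these shares was not tested. ARNTL was higher at 24 h by 0.90 ± 0.08 (edgeR adjusted p = 1.18e-08), NR1D1 by 0.71 ± 0.08 (edgeR adjusted p = 6.04e-07) and PER1 by 0.55 ± 0.08 (edgeR adjusted p = 1.53e-05), each without overlap between the libraries. PER3 was lower by 0.30 ± 0.06 (edgeR adjusted p = 0.000328), CRY2 by 0.31 ± 0.08 (edgeR adjusted p = 0.00329) and DBP by 0.15 ± 0.06 (edgeR adjusted p = 0.0438). ARNTL and its repressor NR1D1 therefore rose side by side. PER2 (0.07 ± 0.09), CRY1 (0.13 ± 0.08), CLOCK (-0.01 ± 0.06) and NR1D2 (0.07 ± 0.06) did not pass. With library totals 5 genes were higher and 1 was lower, against 3 and 3 with TMM: CRY1 (0.26) and NR1D2 (0.20) joined those higher, PER3 moved to -0.17 (edgeR adjusted p = 0.0482), and the calls of CRY2 (-0.18, edgeR adjusted p = 0.0939) and DBP (-0.02, edgeR adjusted p = 0.821) ended. The DBP call also ended in 4 of the 6 fits that left out a library (8 h A or C, 24 h A or B), at -0.11 to -0.15, with no filter on low counts (edgeR adjusted p = 0.0680) and in a fit of these 2 groups only (edgeR adjusted p = 0.0748). Cells were dosed a set time after seeding, so the duration of treatment and the time since seeding cannot be told apart.

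The combination and docetaxel at 24 h, both labelled as 24 h after dosing, differed in 8 of the 10 genes, 2 higher and 6 lower in the combination, where 63.8% of all genes tested were called. Over all genes tested, 32.1% were higher and 31.7% lower in the combination. The median of the 10 genes was -0.30, against 0.00 over all genes. Whether the 10 genes differed from this background was not tested. ARNTL was higher in the combination by 0.61 ± 0.07 (edgeR adjusted p = 1.92e-07) and NR1D2 by 0.17 ± 0.06 (edgeR adjusted p = 0.0184). All 3 period genes were lower: PER2 by 1.23 ± 0.09 (edgeR adjusted p = 1.03e-10), PER3 by 0.55 ± 0.06 (edgeR adjusted p = 4.06e-08) and PER1 by 0.50 ± 0.08 (edgeR adjusted p = 1.53e-05). CLOCK was lower by 0.59 ± 0.07 and CRY1 by 0.40 ± 0.08 (edgeR adjusted p = 5.14e-08 and 0.000189). NR1D1 was lower by 0.21 ± 0.08 (edgeR adjusted p = 0.0305), a call that ended without combination library A (edgeR adjusted p = 0.0749) or B (edgeR adjusted p = 0.123) and without 24 h library C (edgeR adjusted p = 0.150), at -0.16 to -0.19. That of NR1D2 ended without combination library B (0.12, edgeR adjusted p = 0.122). CRY2 (0.07 ± 0.08) and DBP (-0.08 ± 0.06) did not pass. The combination followed 5 days of culture in tazemetostat or DMSO, so exposure to tazemetostat may have been longer than 24 h. The plate size also differs between these groups. Neither the earlier culture nor the plate can be told apart from the drugs. The serum in the docetaxel medium, like the culture of the docetaxel groups before seeding, is not given in the labels.

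Of 11 tested factors of the secondary loops and outputs, 5 rose and 3 fell in the combination, 4 rose and 3 fell at 24 h of docetaxel, and 3 rose and 3 fell at 8 h. Their median log2 fold changes were 0.15, 0.06 and 0.01, and the genes called made up 62.8%, 42.9% and 47.3% of all genes tested in these comparisons. RORA, which encodes a ROR receptor that activates ARNTL, had 102, 136 and 119 counts in the combination, against 9, 7 and 8 in DMSO, and rose by 4.09 ± 0.26 (edgeR adjusted p = 5.66e-12). BHLHE41 (DEC2), a repressor at E-boxes, rose by 0.77 ± 0.10 in the combination (edgeR adjusted p = 4.92e-07), and HLF, a relative of DBP, fell by 0.99 ± 0.13 (edgeR adjusted p = 4.49e-07) there and by 0.49 at 24 h. CIART, a further repressor of the pair, rose by 0.67 ± 0.08 at 24 h and 0.48 ± 0.08 at 8 h of docetaxel (edgeR adjusted p = 1.08e-06 and 5.59e-05). NFIL3, which competes with DBP at D-boxes, rose by 0.36 at 24 h and fell by 0.21 at 8 h, and NOCT, which encodes a rhythmic phosphatase of the nicotinamide cofactors, rose by 0.57 at 24 h and fell by 0.36 at 8 h and by 0.35 in the combination.

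**Figure D4:**
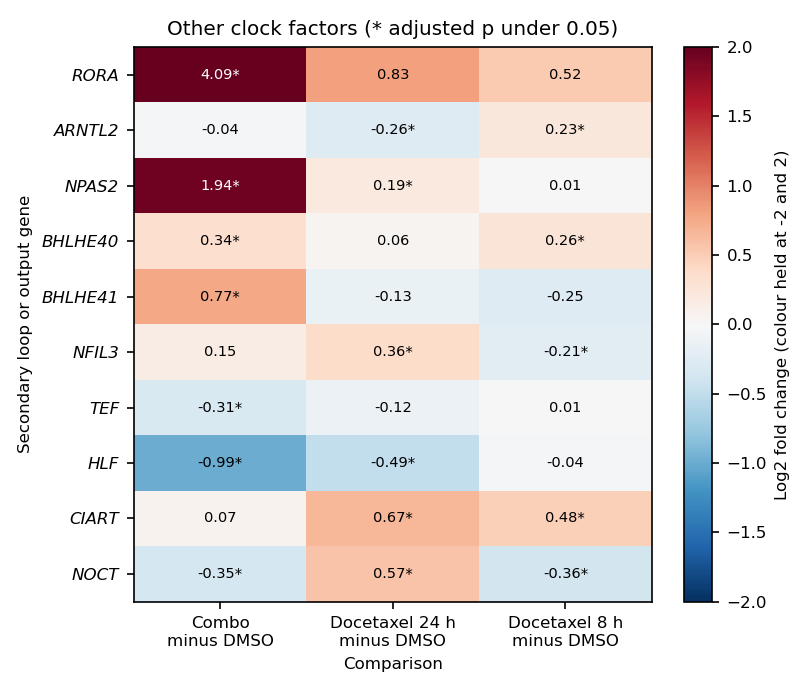
Log2 fold change against DMSO of 10 tested factors of the secondary loops and outputs (rows) in the combination, at 24 h and at 8 h of docetaxel (columns). An asterisk marks an adjusted p under 0.05, and the colour scale saturates at its ends. RORA (4.09) and NPAS2 (1.94) have the 2 highest values of the combination, and CIART (0.67) the highest called value at 24 h.

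Among 15 tested kinases, ligases and other regulators of clock proteins, 4 rose and 8 fell in the combination (median -0.30), 3 and 6 at 24 h of docetaxel (0.03) and 1 and 6 at 8 h (-0.03). Over all genes tested, 31.4% rose and 31.4% fell in the combination, 20.2% and 22.7% at 24 h, and 22.5% and 24.8% at 8 h. CSNK1A1, which encodes casein kinase 1 alpha, fell in all 3, by 0.90 ± 0.08, 0.54 ± 0.08 and 0.66 ± 0.08 (edgeR adjusted p at most 1.76e-05). CSNK2B, the regulatory subunit of casein kinase 2, rose by 0.27, 0.53 and 0.90. GSK3B, a kinase that acts on REV-ERB alpha, fell by 0.37, 0.17 and 0.39.

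Of 12 genes that clocks are known to drive in some tissues, 5 rose and 3 fell in the combination (median 0.14), 5 rose and none fell at 24 h of docetaxel (0.24), and 2 rose and 3 fell at 8 h (-0.03). The lists overlap: NFIL3 and TEF are also counted among the secondary loop and output factors, USP2 among the regulators and TSC22D3 among the genes of PER1 control. The shares of all genes tested that rose were 31.4%, 20.2% and 22.5%, and those that fell were 31.4%, 22.7% and 24.8%. PPARGC1A, a coactivator that acts with ROR receptors, had 435, 498 and 467 counts in the combination, against 30, 10 and 12 in DMSO (4.97 ± 0.20, edgeR adjusted p = 1.33e-15). NAMPT, the enzyme of NAD salvage, rose at 24 h of docetaxel by 0.26 ± 0.05 (edgeR adjusted p = 7.57e-05) and stood at 0.06 in the combination.

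Of 11 tested genes that feed into PER1 or answer to glucocorticoids or cAMP as PER1 does, 6 rose and 3 fell in the combination (median 0.13), 3 and 4 at 24 h of docetaxel (-0.0048) and 1 and 5 at 8 h (-0.16), where 62.8%, 42.9% and 47.3% of all genes tested were called. The kinase gene SGK1 rose by 2.34 ± 0.07 in the combination and 0.40 ± 0.07 at 24 h (edgeR adjusted p = 1.62e-18 and 3.38e-05). FKBP5, a cochaperone of the glucocorticoid receptor, fell by 1.17 ± 0.06 and 0.52 ± 0.05 (edgeR adjusted p = 2.12e-14 and 9.25e-08). TSC22D3, a glucocorticoid-induced gene, had 98.8, 91.0 and 86.8 CPM at 8 h, against 190, 178 and 184 CPM in DMSO, and fell by 0.996 ± 0.056 there (edgeR adjusted p = 5.52e-12). It fell by 0.34 in the combination, and at 24 h it did not pass (edgeR adjusted p = 0.960). DUSP1, which encodes a phosphatase of MAP kinases, fell by 1.14 ± 0.11 at 8 h and by 0.37 ± 0.11 at 24 h, and rose by 0.37 ± 0.11 in the combination (edgeR adjusted p = 2.95e-08, 0.00797 and 0.00458). SIK1, a kinase that limits the cAMP signal to the clock, rose by 0.85 in the combination and by 0.53 at 24 h.

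The genes with the most similar pattern were sought for the 3 clock genes with the widest range, as the smallest root mean square difference between the 3 log2 fold changes against DMSO, with candidates limited to protein-coding genes whose highest group mean reached 5 CPM. For ARNTL they were RNF152 (0.0788), MEF2C (0.115), TP53INP1 (0.117) and TM7SF2 (0.128). For PER2 they were SLC35E4 (0.055), ODC1 (0.0773), AUNIP (0.083) and FZD9 (0.0837), and for CLOCK they included ZNF562 (0.0376), SAMHD1 (0.0435) and ISPD (0.0546). These differences are on the log2 scale and rest on 12 libraries in 4 groups.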

How the data were processed

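The deposited files hold whole-number read counts per gene for 12 libraries, made by the authors. Per the submitters' processing notes, fastp, HISAT2 2.0.5, DESeq2 and hg38 were used; which program counted reads, on which annotation and with what strand option is not given in the sources used here. Of 58735 symbols, 58708 matched GENCODE 29. Counts were tested with edgeR 4.0.16 (R 4.3.3) in 1 quasi-likelihood fit of the 4 groups, with TMM factors (0.917 to 1.05), filterByExpr at a minimum count of 10, 8 residual degrees of freedom and Benjamini-Hochberg adjustment over 17780 genes in each of 5 comparisons. The SE is the absolute log2 fold change divided by the root of F. The procedure was tested on simulated data. Alternatives were library totals, DESeq2 1.42.0 (its size factors and its Wald test), no filter, only the groups compared, a replicate block and leaving out each library.

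The clock genes and the lists were chosen with earlier results of these data known. Every clock gene is named. A deposited table of scaled values was compared with the counts and was not used in the tests. Of each list, up to 4 genes per comparison with the smallest adjusted p could be named. Such a gene may also be given in other comparisons. A few genes picked out in this way are left unreported.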

Additional observations from a re-analysis of the deposited data

Results flagged for a closer look

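For 6 clock genes the level differed between 24 h and 8 h of docetaxel, by edgeR's test of the difference itself (adjusted p under 0.05 over all genes tested). The 24 h level minus the 8 h level was 0.90 for ARNTL, 0.71 for NR1D1, 0.55 for PER1, -0.30 for PER3, -0.31 for CRY2 and -0.15 for DBP on the log2 scale. The calls of CRY2 and DBP ended with library totals, and that of DBP also in 4 of 6 fits that left out a library. The same 3 DMSO libraries, whose hours are not given, serve both time points. A change in the effect of docetaxel and a change with elapsed time therefore cannot be told apart.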

How the results depend on the processing

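Of 50 results for single clock genes, 33 were called, 23 of them under every alternative run, and none of the 33 reversed. The counts of genes and of clock genes called stayed within 1.5 times under every alternative. The number of clock genes called was 5 to 6 at 8 h of docetaxel, 4 to 5 at 24 h and 6 to 8 in the combination with 1 library left out, 5 to 6 for 24 h against 8 h and 6 to 8 for the combination against 24 h.

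Values near 0 that had not passed changed sign, and the cause was not tested. With library totals NR1D1 at 8 h moved to -0.11, PER3 and CRY2 at 24 h to -0.0162 and -0.0208, and CLOCK at 24 h against 8 h to 0.12. With no filter PER3 and CRY2 at 24 h stood at -0.0087 and -0.0126. With the DESeq2 Wald test CRY1 at 8 h stood at 7.24e-06. With 1 library left out, CRY1 ran between -0.0672 and 0.0599 and NR1D1 between -0.0221 and 0.14 at 8 h. At 24 h PER3 ran between -0.0063 and 0.0329, CRY2 between -0.056 and 0.0722, ARNTL between -0.14 and 0.0106 and NR1D2 between -0.0406 and 0.0146. CLOCK ran between -0.0424 and 0.0141 for 24 h against 8 h, and CRY2 between -0.0048 and 0.14 for the combination against DMSO and between -0.0077 and 0.14 against 24 h.

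With the replicate block the counts of clock genes called were 8 in the combination, 5 at 24 h and 6 at 8 h, as without it, and the genes called were 11218, 7767 and 8490. Libraries with the same letter shared little deviation from their group means: of 18 pairs with the same letter, 1 correlated above 0.1 (range -0.13 to 0.14). Pairs with different letters ran from -0.13 to 0.10. These weak correlations cannot exclude that the letters mark shared cultures or handling.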
